A study of Mus musculus with 4 samples.

Results

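The miR-17-92 cluster and its paralog miR-106b-25 were followed through the targets that 8 of their mature miRNAs were ligated to in overloaded mouse plantaris muscle. The members were miR-17-5p, miR-20a-5p, miR-19a-3p, miR-19b-3p and miR-92a-3p of the first cluster and miR-106b-5p, miR-93-5p and miR-25-3p of the second. They were chosen by name: every pairing of a peak with a listed miRNA was kept, which gave 1489 of the 93468 peak and miRNA pairs in the control library and 1655 of the 100897 pairs in the mimic library. These pairs held 1762 of 232408 chimeric reads (0.758%) and 1843 of 259207 chimeric reads (0.711%).

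The study asked what miR-1, a miRNA of muscle fibers, targets while muscle grows. Chimeric eCLIP was used, in which Ago2, the protein that holds a miRNA on its target, is crosslinked and pulled down, and the miRNA is ligated to the RNA fragment beneath it, so that a read names both. Both groups were plantaris muscles of 5-month-old male C57BL/6J mice, 10 days into mechanical overload (MOV) by surgical removal of part of the synergist muscles. Both had received lentivirus in the muscle at surgery. The MOV control group carried a scrambled control virus and the MOV mimic group a virus that makes a miR-1 mimic, each under a CMV promoter with a green fluorescent reporter. A CMV promoter is not restricted to muscle fibers. Each mouse of the study received the control virus in the left plantaris and the mimic virus in the right, so that side and virus cannot be told apart. Whether the 2 libraries came from the same mouse is not stated. Each group was 1 library, so no comparison between them was tested: intervals below are 95% intervals that cover counting error only, and reads that share a PCR origin are not independent molecules beyond what the authors' removal of duplicates achieved. The input libraries were not analysed here.

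The miR-1 mimic library held more miR-1a-3p reads, 35876 against 27411 in the control library. As shares of all chimeric reads these were 13.8% and 11.8%. All chimeric reads together were 1.12 times as many in the mimic library, and this is the ratio against which the members' read ratios can be read, since reads were not scaled for depth. The genes that collected the members' reads included fast myosin (Myh1), titin (Ttn) and the calcium pump SERCA1 (Atp2a1), genes of fast skeletal muscle, as the tissue label says.

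A miRNA finds its targets mostly through its seed, the bases near its 5′ end that pair with a complementary stretch of the target, often in the 3′ untranslated region (UTR). The miR-17-92 cluster is transcribed as a single RNA and is best known for promoting proliferation and restraining apoptosis and TGF-β signalling. The miR-106b-25 cluster lies within an intron of Mcm7, a DNA replication gene. Because cluster members fall into families with shared seeds, the same gene can be reached from both clusters.

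The mature sequences are shown because seed identity is what groups the members, and because the members of a group are so alike that a read can be assigned to a name only by the bases outside the seed. The prefix mmu marks a mouse miRNA and is left out in the rest of the text. The sequences were taken from RefSeq (GRCm38.p6), in which all 8 members matched by name. Capitals mark the seed, bases 2 to 8 from the 5′ end. The first set shares the seed AAAGUGC and is called the miR-17 seed group here.
mmu-miR-17-5p: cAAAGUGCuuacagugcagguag
mmu-miR-20a-5p: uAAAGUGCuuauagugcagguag
mmu-miR-93-5p: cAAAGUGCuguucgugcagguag
mmu-miR-106b-5p: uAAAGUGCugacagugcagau

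The second set, the miR-19 seed group, shares the seed GUGCAAA.
mmu-miR-19a-3p: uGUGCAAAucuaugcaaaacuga
mmu-miR-19b-3p: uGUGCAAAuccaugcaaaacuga

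The third set, the miR-25/92 seed group, shares the seed AUUGCAC.
mmu-miR-25-3p: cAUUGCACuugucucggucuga
mmu-miR-92a-3p: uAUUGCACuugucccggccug

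Outside the seed the differences were few. Counted from 1 at the 5′ end, miR-19a-3p and miR-19b-3p differed by the substitution U11C alone. miR-17-5p and miR-20a-5p differed by C1U and C12U. miR-25-3p and miR-92a-3p differed by C1U, U14C and U18C over the 21 bases aligned. The miR-17-92 hairpins lie on the plus strand of chromosome 14, from Mir17 at chr14:115043671-115043754 to Mir92-1 at chr14:115044427-115044506. The miR-106b-25 hairpins lie on the minus strand of chromosome 5, from Mir25 at chr5:138165321-138165404 to Mir106b at chr5:138165737-138165818. miR-19b-3p and miR-92a-3p each have a further copy on chromosome X with the same mature sequence, so their reads cannot be told apart by locus.

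All 8 members were ligated to targets in both libraries, at similar depth. miR-19b-3p, the most abundant, held 389 reads in the control library and 400.1 in the mimic library. miR-20a-5p held 244 and 257 reads, miR-17-5p 242 and 267, miR-106b-5p 224 and 220.0, and miR-93-5p 192 and 211. miR-92a-3p held 201 and 194 reads, miR-25-3p 180 and 196, and miR-19a-3p, the least abundant, 89.9 and 97.6. By reads the members ranked between 57 and 106 of the 560 miRNAs in the control library and between 60 and 108 of 560 in the mimic library. The mimic over control ratio ran from 0.966 (interval 0.788 to 1.18) for miR-92a-3p to 1.1 (0.924 to 1.32) for miR-17-5p, and every member's interval held both 1 and 1.12. The 5 members from miR-17-92 summed to 1166 and 1216 reads, a ratio of 1.04 (0.962 to 1.13), and the 3 from miR-106b-25 summed to 597 and 628, a ratio of 1.05 (0.939 to 1.18). The plot of reads by miRNA shows the order of the members, in which miR-19b-3p and miR-19a-3p stand clear of the others and the remaining 6 overlap with their neighbours.

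**Figure D1:**
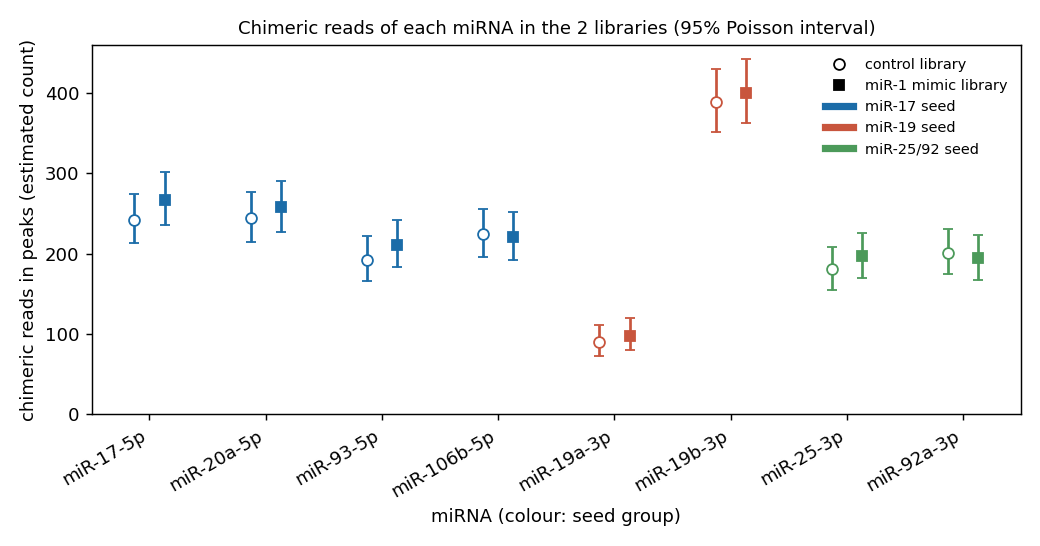
Chimeric reads in peaks (estimated count, vertical axis) of each of the 8 miRNAs in the control library (open circles) and the miR-1 mimic library (filled squares), with 95% Poisson intervals and colours for the seed groups. The intervals of the 2 libraries overlap for every miRNA, and miR-19b-3p lies highest with 389 and 400.1 reads.

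A site is used below for a peak that listed at least 1 member of a seed group, with the reads of those members summed. The miR-17 seed group had 532 sites with 902 reads in the control library and 633 sites with 955 reads in the mimic library. The miR-19 group had 348 sites with 479 reads and 380 sites with 498 reads. The miR-25/92 group had 265 sites with 382 reads and 275 sites with 391 reads. The read ratios were 1.06 (0.966 to 1.16), 1.04 (0.915 to 1.18) and 1.02 (0.887 to 1.18). Among 109 other seed families with at least 50 sites the median ratio was 1.06, with 55, 59 and 67 families above the miR-17, miR-19 and miR-25/92 groups. All 3 groups lay within the span of 0.721 to 1.48 that held the 5th to 95th percentiles of those families.

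Most sites were thin. The median peak and member pair held 0.80 reads in the control library and 0.798 in the mimic library, and 62.2% and 65% of pairs held less than 1 read, since the files carry fractional read estimates. Over all control sites, 36.8%, 25.9% and 28.7% of the miR-17, miR-19 and miR-25/92 groups were overlapped by a mimic site of their group. Among the 109 other families the median share was 23.6%, with 5th and 95th percentiles of 11.8% and 44.4%. Of these families 18, 45 and 40 lay above the 3 groups. The shares by read class below were not set against other families. Control sites with more reads were found again more often. For the miR-17 seed group, 25% of the 288 control sites under 1 read were overlapped by a mimic site of the group. The share was 39.2% of 181 sites with 1 to under 3 reads and 84.1% (72.7 to 92.1) of 63 sites with 3 or more. The same order held for the miR-19 group, at 17.3%, 33.3% and 75.0% of 20 sites, and for the miR-25/92 group, at 20%, 36.4% and 84.2% of 19 sites. Sites with 3 or more reads therefore carry the descriptions that follow, and overlapping or abutting peaks of both libraries were merged into regions so that a peak split in 1 library was not read as a loss.

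The miR-17 seed group touched 392 of the 6661 genes with any chimeric peak in the control library (5.89%) and 455 of 6953 in the mimic library (6.54%), and 170 genes were listed in both. Otud1, which encodes a deubiquitinase, held 20.3 reads (12.2 to 30.9) and 15.0 reads (8.40 to 24.7) at chr2:19659487-19659635 (GRCm38). These reads were 29.9% and 27.1% of all chimeric reads in that region, and over the whole gene the seed group held 5.05% and 4.46% of the reads at Otud1. The intervals of the 2 libraries overlapped, and no other single miRNA held as many reads as the seed group.

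Several smaller regions belonged almost wholly to the miR-17 seed group, and they were singled out after their values were seen. At Xiap, an inhibitor of caspases, the region chrX:42106117-42106222 held 7.48 reads in the control library and 9.49 in the mimic library, 100% of the chimeric reads in both. At Atg16l1, a gene of autophagosome formation, 6.43 and 5.67 reads were again 100% of both. At Ptpn4, a protein tyrosine phosphatase gene, 9.86 and 8.57 reads were 90.8% and 100%. These 3 regions listed no or almost no other miRNA. Tgfbr2, the type II TGF-β receptor, held 8.47 reads (3.45 to 15.8) and 5.73 reads (2.20 to 13.1) at chr9:116090015-116090105, 74.7% and 62.5% of the reads there. Ccnd1, which encodes the G1 cyclin D1, held 3.04 and 3.60 reads, 78.6% and 71.7%. In all, 9 miR-17 seed regions had at least 3 reads in both libraries and over 50% of the reads in both.

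Other regions rich in miR-17 seed reads were dominated by other miRNAs. Myh1, the fast type IIx myosin heavy chain, held 23.3 reads (14.6 to 34.5) and 32.7 reads (22.7 to 46.3) of the group, which were 1.81% and 1.68% of a region led by miR-133a-3p with 600.5 and 971 reads. Mcl1, an anti-apoptotic BCL2 relative, held 6.0 and 8.64 reads, 5.35% and 7.09% of a region led by miR-133a-3p. The ribosomal RNA locus Rn18s-rs5 held 109 and 91.9 reads in its main region, which were 1.92% and 1.99% of the reads there. Over the whole gene Myh1 held 24.0 (15.4 to 35.7) and 42.7 (31.1 to 57.9) miR-17 seed reads, a ratio of 1.78 (1.06 to 3.09), while the reads of all miRNAs at Myh1 were 6380 and 11358, of which the seed group was 0.376% in both libraries. Over all its sites the Rn18s-rs5 locus took 15.1% and 12.1% of the group's reads, against 6.71% and 6.41% of the reads of all miRNAs. The plot of shares by region sets these apart from Xiap, Atg16l1 and Ptpn4.

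**Figure D2:**
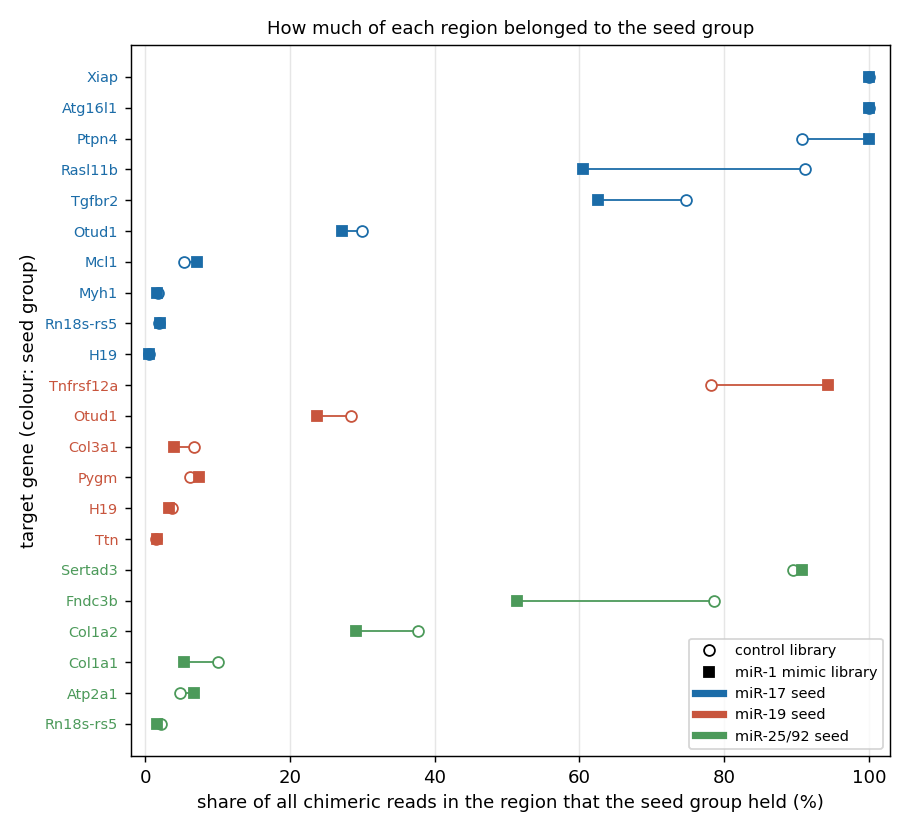
Share (%, horizontal axis) of all chimeric reads in a region that belonged to the seed group, for regions named in the text, in the control library (open circles) and the miR-1 mimic library (filled squares). Xiap and Atg16l1 lie at 100% in both libraries, whereas Myh1, Rn18s-rs5 and H19 lie below 5%.

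The miR-19 seed group touched 264 genes in the control library (3.96% of genes with a peak) and 281 in the mimic library (4.04%), and 81 were listed in both. It was concentrated on H19, an imprinted long noncoding RNA of embryonic and regenerating muscle. H19 held 107 of 479 reads (22.3%) in the control library and 123 of 498 (24.7%) in the mimic library. Nearly all lay at chr7:142575741-142575858 on the minus strand, with 105.6 reads (86.8 to 128) and 120.0 reads (99.5 to 143), a ratio of 1.14 (0.864 to 1.48). These were still only 3.66% and 3.25% of the reads in that region. Its main peak was led by miR-130a-3p, with 1096 and 1476 reads, followed by miR-199a-5p, miR-152-3p and miR-301a-3p. The sequences of miR-130a-3p and miR-301a-3p are shown because their seeds overlap that of miR-19. Capitals again mark bases 2 to 8 (RefSeq, GRCm38.p6).
mmu-miR-130a-3p: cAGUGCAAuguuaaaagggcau
mmu-miR-301a-3p: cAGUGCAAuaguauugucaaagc

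Both shared the 6 letters GUGCAA with the miR-19 seed, 5 letters with the miR-17 seed and 4 with the miR-25/92 seed. The seed of miR-199a-5p shared 3 letters with that of miR-19. The shared letters are a description of the miRNAs, since the sequence under the H19 peak was not read.

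Tnfrsf12a and Otud1 were also among the leading targets of the miR-19 seed. Tnfrsf12a, which encodes Fn14, the receptor of the cytokine TWEAK, held 16.0 reads (9.15 to 26.0) and 10.8 reads (5.49 to 19.7) at chr17:23675666-23675795 on the minus strand. These were 78.1% and 94.4% of the reads there, the largest share of any miR-19 seed region with at least 3 reads in both libraries. Otud1 held 23.2 reads (14.6 to 34.5) and 8.44 reads (3.45 to 15.8) at chr2:19659648-19659797, just downstream of the miR-17 seed region of the same gene and separate from it. The same gene was therefore reached by both seeds at neighbouring places. Pygm, the muscle glycogen phosphorylase, held 7.47 and 10.6 reads, and Ttn 8.0 and 11.1 at chr2:76812477-76812601, as 1.53% and 1.65% of a region led by miR-133a-3p. Col3a1, the type III collagen chain, held 8.69 and 4.95 reads in a region led by miR-29a-3p.

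The miR-25/92 seed group touched 173 genes in the control library (2.60%) and 184 in the mimic library (2.65%), and 53 were listed in both. Outside ribosomal RNA its heaviest region lay in Col1a2, a chain of type I collagen, the main fibrillar collagen of muscle connective tissue. Col1a2 held 31.2 reads (21.1 to 44.0) and 36.7 reads (26.1 to 51.0) at chr6:4540677-4540883, 37.7% and 29.2% of the reads there. Col1a1 held 13.9 reads (7.65 to 23.5) and 9.41 reads (4.12 to 17.1) at chr11:94937913-94938069, 10.0% and 5.38% of the reads. Both chains of type I collagen were thus listed in both libraries.

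Titin held a pair of separate miR-25/92 seed regions on the minus strand of chromosome 2. That at chr2:76778003-76778066 held 9.71 and 14.8 reads and that at chr2:76775875-76775940 held 12.7 and 10.9 reads. Sertad3, which encodes a transcriptional coregulator, held 8.51 and 9.76 reads at chr7:27477135-27477224, 89.5% and 90.7% of all reads there. Fndc3b, a fibronectin type III domain gene, held 8.45 and 8.0 reads, 78.6% and 51.4%. Few reads of other miRNAs thus lay in the Sertad3 region. At Fndc3b other miRNAs held much of the mimic library's reads, with miR-191-5p and miR-378a-3p next at 2.0 reads each. Atp2a1, the fast-fiber calcium pump SERCA1, held 5.83 and 10.3 reads in a region led by miR-133a-3p. The Rn18s-rs5 ribosomal RNA locus took 23.3% and 21.0% of the group's reads, 75.1 and 67.0 of them in a single region.

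Members that share a seed did not always share the target in the same proportion. Over all sites miR-25-3p made up 47.3% and 50.3% of the miR-25/92 seed reads. At Col1a2 it made up 77.5% (58.9 to 90.4) in the control library and 83.4% (68.0 to 93.8) in the mimic library. At the main Rn18s-rs5 region it made up 86.4% (76.8 to 93.4) and 90.1% (79.7 to 95.7). At Col1a1, by contrast, miR-92a-3p held 13.9 of 13.9 reads in the control library and 8.69 of 9.41 in the mimic library. miR-92a-3p likewise held at least 72.3% of the group's reads in both libraries at each Ttn region, at Sertad3 and at Fndc3b. The intervals for miR-25-3p at Col1a2 and Col1a1 did not overlap in either library, and Rn18s-rs5 and Col1a2 were the highest of the regions plotted in both. Without Col1a2 and the main Rn18s-rs5 region, miR-25-3p made up 33.2% (27.6 to 39.0) and 36.8% (31.3 to 42.8) of the group's reads. These regions were singled out after their values were seen, and reads of near-identical miRNAs may be split by the authors' assignment in ways that were not tested.

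**Figure D3:**
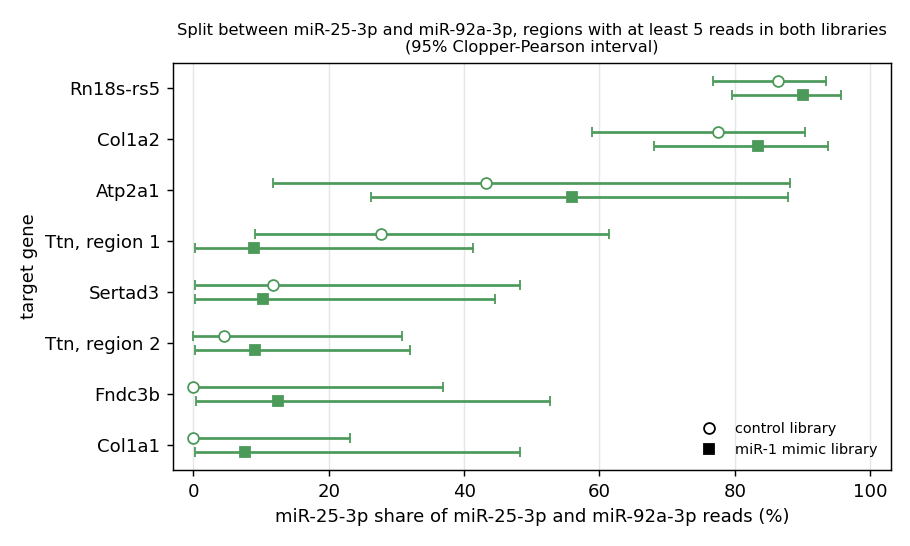
Share (%, horizontal axis) of miR-25-3p in the summed reads of miR-25-3p and miR-92a-3p at each region with at least 5 such reads in both libraries, with 95% Clopper-Pearson intervals, in the control library (open circles) and the miR-1 mimic library (filled squares). Rn18s-rs5 and Col1a2 lie above 75% in both libraries and Col1a1 below 10%.

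For the miR-19 group, miR-19b-3p made up 81.2% and 80.4% of reads over all sites and 77.9% and 74.8% at H19. Within the miR-17 seed group, miR-20a-5p made up 27.1% and 26.9%, miR-17-5p 26.8% and 27.9%, miR-106b-5p 24.8% and 23.0%, and miR-93-5p 21.3% and 22.1%. At Xiap and Tgfbr2 no miR-106b-5p read was listed in either library, but with under 10 reads a region that allows a share of up to 41.0% at Xiap in the control library. The 4 members shared sites often: of the peaks that listed miR-17-5p, 56.3% (49.2 to 63.2) in the control library listed another member of the seed group. With a single partner of the same seed, 13.5% of the miR-19b-3p peaks and 43.5% of the miR-19a-3p peaks listed the other. Sites that listed all 4 miR-17 seed members were 26 of 532 (4.89%) in the control library and held 36.7% of the group's reads, and 23 of 633 (3.63%) in the mimic library with 26.2%.

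Part of the target genes carried a match to the seed that had been ligated to them. This was read from the longest annotated 3′ UTR of each gene in the GENCODE mouse transcripts, by gene name, because no genome of the build of the peak files was used, so a match is in the gene and not shown to be under the peak. Searched on the transcript strand, the match was GCACTTT for the miR-17 seed, TTTGCAC for the miR-19 seed and GTGCAAT for the miR-25/92 seed. Matches can run into each other, since TTTGCAC ends with the 4 letters that begin GCACTTT. Of 6770 genes with a chimeric peak and a 3′ UTR sequence, mitochondrial and ribosomal loci left out, 16.6%, 15.6% and 8.97% held these matches.

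Of the 147 miR-17 seed targets listed in both libraries with a 3′ UTR sequence, 42.9% (34.7 to 51.3) held the miR-17 match, against 21.8% with the miR-19 match and 16.3% with the miR-25/92 match. Of the 71 miR-19 seed targets, 43.7% (31.9 to 56.0) held the miR-19 match, against 16.9% with the miR-17 match and 11.3% with the miR-25/92 match. Of the 45 miR-25/92 seed targets, 44.4% (29.6 to 60) held the miR-25/92 match, against 20% with the miR-17 match and 15.6% with the miR-19 match. In each set the match to its own seed was thus the most frequent of the 3, and its interval lay above the share over all genes with a peak. This was not confined to the own seed. In the miR-17 set the interval of the miR-25/92 match (10.7 to 23.3) also lay above its share over all genes, 8.97%. Among targets with at least 3 reads in a library the shares for the own seed were 53.6% of 69, 51.9% of 27 and 55.0% of 20. In coding sequence they were 24.3%, 21.1% and 24.4% for the targets listed in both libraries, against 10.4%, 9.87% and 6.89% over all genes. The 3′ UTRs of these sets had median lengths of 1474, 1373 and 959 nt, against 1403.5 nt over all genes. The rule that chose the sites used the miRNA name and no target sequence.

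**Figure D4:**
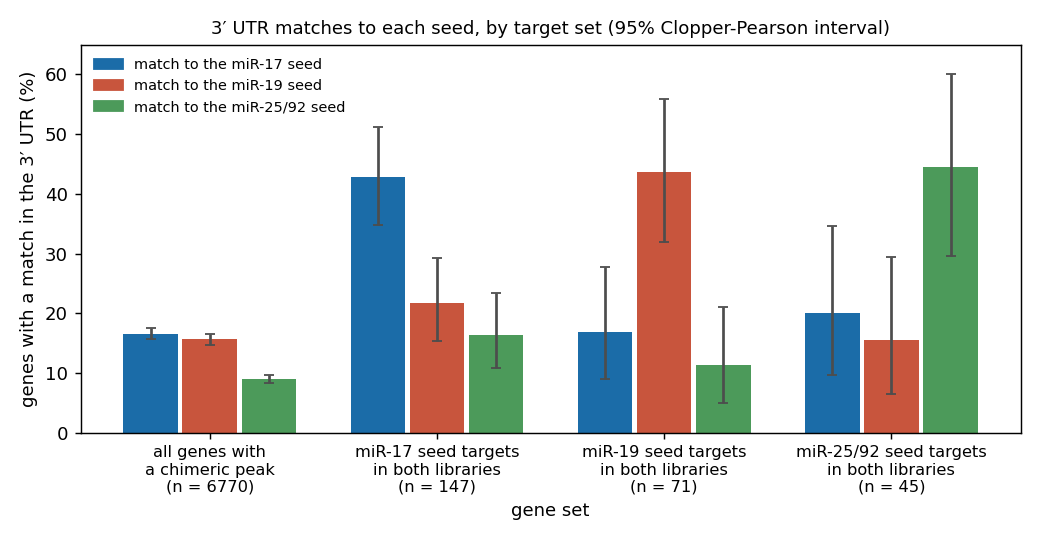
Share of genes (%, vertical axis) whose 3′ UTR holds a match to the miR-17, miR-19 or miR-25/92 seed, for all genes with a chimeric peak and for the targets of each seed group listed in both libraries, with 95% Clopper-Pearson intervals. The tallest bar of each target set is the match to its own seed, at 42.9%, 43.7% and 44.4%.

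The matches of the leading targets are shown as up to 23 bases of their 3′ UTR, 5′ to 3′, with the letters complementary to the seed in capitals, since these genes carried many reads at regions rich in a seed group. The 3′ UTR of Otud1 held both a miR-17 match, at bases 85 to 91, and a miR-19 match, at bases 321 to 327.
Otud1, miR-17 match: taattagggtaatgGCACTTTtc
Otud1, miR-19 match: tataaaaatgtattTTTGCACat
Tgfbr2, miR-17 match: agccaataacgtttGCACTTTat
Tnfrsf12a, miR-19 match: aaggaactgcagcaTTTGCACaa
Col1a2, miR-25/92 match: ttggtcagagcagtGTGCAATat
Sertad3, miR-25/92 match: ccaggccggaccatGTGCAATag

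The starts of the Otud1 matches were 236 bases apart in the 3′ UTR, and the centres of the Otud1 regions were 161.5 bases apart in the genome. Each of the 6 matches was the only one for its seed in that 3′ UTR. Of the 9 regions led by the miR-17 seed in both libraries, 7 were in genes with the match in the 3′ UTR, against 16.6% of all genes with a peak. The exceptions were Xiap and Paip1, which held no miR-17 match in the 3′ UTR or coding sequence searched. Along the genome the Ptpn4, Clip4 and Ccnd1 regions lay 7192, 6752 and 4088 nt from the gene's 3′ end. Their 3′ UTRs as searched were shorter, at 2473, 2126 and 2676 nt. The regions of Rasl11b, Tgfbr2, Atg16l1 and Itpripl2 lay within the length of theirs. Fndc3b held its miR-25/92 match in the coding sequence and none in the 3′ UTR. Col1a1 held 1 miR-25/92 match in the 3′ UTR and 1 in the coding sequence. Its heaviest region lay 14983 nt from the gene's 3′ end, against a 3′ UTR of 1423 nt. Myh1 and Tnnt3 held no miR-17 match in either.

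The place of sites along coding genes was compared with that of other miRNAs. Within 1000 nt of the annotated 3′ end lay 24.9% (21.1 to 29.1) of miR-17 seed sites in the control library. In the mimic library the share was 23.3% (19.9 to 27.0). For all other miRNAs it was 17.8% and 17.6%, but of peak and miRNA pairs, so that a peak with many miRNAs counted many times. Of all peaks, each counted once, it was 17.1% and 17.3%. The shares were 25.4% (20.7 to 30.5) and 21.8% (17.5 to 26.6) for the miR-19 group and 23.2% (18.1 to 29.1) and 21.4% (16.4 to 27.1) for the miR-25/92 group. The share of the other miRNAs lay below the intervals of the miR-17 group in both libraries, but for the miR-19 and miR-25/92 groups in the control library only. The share of all peaks lay below the intervals of the miR-17 and miR-19 groups in both libraries. For the miR-25/92 group it did so in the control library only. Gene spans alone were used, so exon, intron or UTR was not assigned to a site.

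Reported targets of the miR-17 seed were looked up among its sites. Of 17 such genes with any chimeric peak, 9 had a miR-17 seed site in either library, against 8.39% of all genes with a peak, and 6 had one in both. Those named with at least 3 reads were Tgfbr2, Jak1, Stat3 and Mylip. Jak1, a cytokine receptor kinase, held 6.18 reads (2.20 to 13.1) in the control library and 1.15 (0.0253 to 5.57) in the mimic library. Of 16 reported miR-19 targets, 5 had a miR-19 seed site against 5.75% of all genes, and none reached 3 reads. Foxo1, a transcription factor downstream of insulin signalling, held 1.79 miR-19 seed reads in the control library and 0 (0 to 3.69) in the mimic library. Of 19 reported miR-25/92 targets, 4 had a miR-25/92 seed site against 3.77% of all genes. Klf2, an endothelial transcription factor, was the highest with 3.0 and 1.0 reads. Sites of the other seeds were also found in these lists. Of the 17 genes, 4 had a miR-19 and 1 a miR-25/92 seed site. Of the 16 genes, 4 had a miR-17 and 1 a miR-25/92 seed site. Of the 19 genes, 5 had a miR-17 seed site, more than for their own seed, and 3 a miR-19 seed site. Whether a list was particular to its own seed was not tested.

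Over all genes with a peak, 8.39%, 5.75% and 3.77% had a miR-17, miR-19 or miR-25/92 seed site in either library. Of 13 cell cycle and apoptosis genes with a chimeric peak, 4 had a miR-17 seed site, Cdkn1a, Ccnd1, Wee1 and Mcl1. Of these 4, 2 had one in both libraries and 2 reached 3 reads. None of the 13 had a miR-19 seed site, which was not read as a difference with so few genes, and 1 had a miR-25/92 seed site. Of 22 TGF-β and BMP genes, 5 had a miR-17 seed site, among them the receptors Tgfbr1, Tgfbr2, Tgfbr3 and Acvr1b. A miR-17 seed site was in both libraries for 3 of them, and 2 reached 3 reads. The miR-19 seed also had sites in 5 of the 22 genes and the miR-25/92 seed in 2, none of them in both libraries. Of 11 listed genes of the silencing machinery and the miRNA hosts, 7 had a chimeric peak and 5 a miR-17 seed site in either library, 1 of them in both, among them Ago2, Tnrc6a and Tnrc6b, the last with 1.86 and 3.31 reads. The sarcomere and matrix lists held sites of every seed group. Of 37 sarcomere and muscle metabolism genes, 21 had a miR-17 seed site, 20 a miR-19 seed site and 18 a miR-25/92 seed site. Of 28 matrix genes, 12, 10 and 5 had one, and the 5 with a miR-25/92 seed site held 57.1 and 56.9 reads, mostly at the collagens Col1a2 and Col1a1. Several listed genes reached 3 miR-17 seed reads in a single library. Bgn, the matrix proteoglycan biglycan, held 5.01 reads (1.62 to 11.7) in the control library and 0.532 (0.0253 to 5.57) in the mimic library. Itgav, the integrin alpha V chain, held 4.88 and 1.78 reads, and Timp3, an inhibitor of matrix metalloproteinases, 3.45 and 0.895. Tnrc6a, a partner of Ago2 in silencing, held 3.2 reads in the control library and 0 (0 to 3.69) in the mimic library. Mylip, a ubiquitin ligase of the LDL receptor, held 2.0 and 4.43 reads and Acvr1b, an activin receptor, 1.0 and 3.31. The intervals of the 2 libraries overlapped for each of these 6 genes. Gene expression was not measured in these files, and its part in these counts was not tested.

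The targets of the 3 seeds overlapped in part. In the control library 66 genes had both a miR-17 and a miR-19 seed site, 16.8% of the miR-17 and 25% of the miR-19 target genes. The miR-25/92 group shared 30 genes with the miR-17 group (17.3% of its 173) and 31 with the miR-19 group (17.9%). Sites of all 3 groups were found in 16 genes in the control library and 19 in the mimic library. H19, Ttn, Myh1 and Col3a1, named above, are among the genes with reads of more than 1 seed group.

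Sites found in both libraries were compared by their reads. At reciprocal best overlaps the median log2 ratio of mimic over control reads was -0.04 (-0.20 to 0.10) over 179 miR-17 seed sites, 0.00 (-0.37 to 0.22) over 81 miR-19 seed sites and 0.27 (-0.01 to 0.74) over 67 miR-25/92 seed sites. For all other families it was 0.06 over 27978 sites. After division by library totals, which lowers the median of every family by the same amount, the medians were -0.20 (-0.36 to -0.06), -0.16 (-0.53 to 0.06) and 0.11 (-0.17 to 0.58), and the interval of the miR-17 group then left out 0. Among shared sites with at least 3 reads in both libraries, 9.66% over all families were at least 2-fold higher in the mimic library and 5.53% at least 2-fold lower. Of 32 such miR-17 seed sites, 0 were 2-fold higher and 1 was 2-fold lower. Of 10 miR-19 seed sites, 1 was higher and 1 lower, and of 10 miR-25/92 seed sites none was either.

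The site that was 2-fold lower for the miR-19 seed was that of Otud1, with 23.2 and 8.44 reads, a ratio of 0.364 (0.135 to 0.805). The neighbouring miR-17 seed region of Otud1 had a ratio of 0.739 (0.357 to 1.54), and the intervals overlapped. Within the miR-19 seed peak of Otud1, total chimeric reads were also lower in the mimic library, at 35.7 against 81.8 in the control library. The miR-19 seed share there was 28.4% in the control library and 23.7% in the mimic library. In the same peak miR-1a-3p held 24.5 and 12.5 reads, and miR-206-3p 11.2 and 5.92. Whether the difference was particular to the miR-19 seed was not tested. The miR-17 seed site that was 2-fold lower was at Tnnt3, the fast troponin T, with 11.8 and 5.38 reads and a ratio of 0.456 (0.115 to 1.27). The miR-19 seed site that was 2-fold higher was at Pygm, with 4.31 and 10.6 reads, but after its neighbouring control peak was merged the values were 7.47 and 10.6 and the ratio was 1.42 (0.556 to 4.78). The next largest miR-17 seed differences were at a Ttn site with 5.63 and 3.11 reads and at Rasl11b, a small GTPase gene, with 8.60 and 5.79 reads, and upward at Mcl1 (ratio 1.44), Paip1 (1.43), a translation factor gene, and Myh1 (1.40), all under 2-fold. For the miR-25/92 seed the largest shared differences were Pkdcc, a secreted kinase gene, with 7.55 and 3.88 reads, and Atp2a1, with 5.35 and 10.0 reads in a single pair of peaks. Col1a2 changed side with the treatment of its peaks: the best pair held 30.3 and 19 reads, but the mimic library split this region, and merged it held 31.2 and 36.7.

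Of all 144 regions with at least 3 reads in a library, 107 had reads in both, and 6 had a ratio whose interval left out 1. With reads in both libraries these were Otud1 and a Ttn region of the miR-17 seed at chr2:76776695-76776838, with 18.8 and 7.0 reads and a ratio of 0.372 (0.131 to 0.915). The others were read in a single library: Ssh2, with 6.23 miR-17 seed reads in the control library, and Fam214b (5.91 miR-19 seed reads), Pcmtd1 (6.73 miR-25/92 seed reads) and a region with no gene assigned (10.3 miR-25/92 seed reads) in the mimic library. Of the 6, 3 had an interval above 1 and 3 below it. The intervals were not adjusted for the 144 regions looked at, and they were set against 1 and not against the depth ratio of 1.12. The same count is not given for the other seed families, so whether 6 of 144 is unusual was not tested. The plot of regions shows the heaviest ones near the line of equal reads and the spread widening toward few reads.

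**Figure D5:**
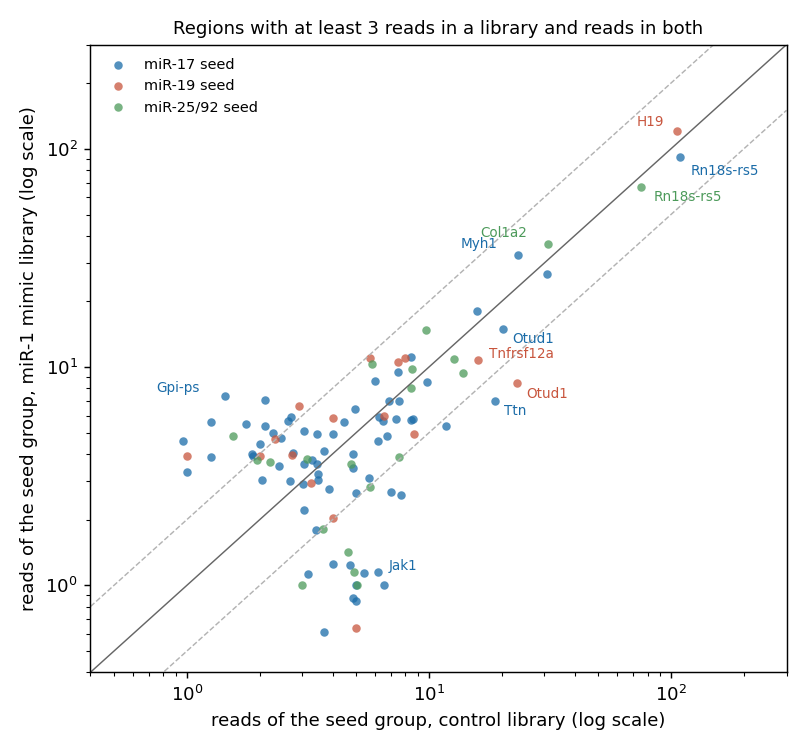
Reads of the seed group in the control library (horizontal, log scale) and the miR-1 mimic library (vertical, log scale) for regions with at least 3 reads in a library and reads in both. The solid line marks equal reads and the dashed lines 2-fold differences, H19 at 105.6 and 120.0 reads lies near the solid line, and Otud1 of the miR-19 seed lies below the lower dashed line.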

How the data were processed

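The authors deposited, for the MOV control and MOV mimic libraries, lists of chimeric peaks with a miRNA and an estimated read count (an expected count that need not be whole) per peak. Per the labels and methods, reads were trimmed, stripped of duplicates by random sequence and aligned; the submitters' processing notes name UMI-tools 1.1.1, cutadapt 3.2, STAR 2.7.7a, Bowtie 1.2.3, HOMER 4.11 and the mm10 build, while the methods name mm9. The methods also describe amplification with a miR-1 primer and do not say for which libraries, and how fractional reads arose is not given in the sources used here. The files listed 20754 and 21872 peaks. Of these, 99.0% in each library overlapped a RefSeq gene span (GRCm38) on the same strand, and in 1.93% and 2.11% the strand of that gene was unknown.

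Python 3.11.15, pandas 2.3.3, numpy 2.4.6 and scipy 1.17.1 were used. Reads were summed over members of a seed group, compared as exact conditional binomial ratios, and given exact Poisson, Clopper-Pearson or order-statistic intervals (95%) on rounded counts. No test was possible with 1 library a group. Overlap needed at least 1 nt on the same strand. The overlap and ratio functions were tested on simulated data. Named genes were the 5 with most reads per seed group and library, the 3 largest differences each way at shared peaks with at least 3 reads, and listed genes with at least 3 reads. Members and lists were chosen with earlier results of these data known. Merged regions, read classes, member shares per region and 3′ UTR matches were added after seeing the data. Of 8054 genes with a peak outside mitochondrial and ribosomal loci, 84.1% had a 3′ UTR sequence by name. Some genes that the naming rule picked are not reported here.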

Additional observations from a re-analysis of the deposited data

How the results depend on the processing

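No paired analysis was possible because a group held a single library. Of 84 alternative values, 55 stayed within the interval of the value reported or, for gene counts, within 1.5 times of it, and 29 moved. Some of the 29 changed side of 1 or 0, but the reported ratio and median of each group had intervals that held 1 or 0, so no called direction turned. The miR-17 read ratio was 0.933 with at least 3 reads per peak and miRNA and 0.949 after division by library totals, and without mitochondrial and ribosomal loci it was 1.11 (1.001 to 1.22), an interval that left out 1. The miR-25/92 ratio was 1.21 at sites led by the group, where it held more reads than any other single miRNA. The share of control sites overlapped was 41.7%, 70.6% and 62.5% for the miR-17, miR-19 and miR-25/92 groups with at least 3 reads per peak and miRNA in both libraries. It was 32.5%, 20.9% and 22.9% at led sites and 28.8%, 20.7% and 19.2% with 50% reciprocal overlap. It was 30.2% for miR-17 counted from the mimic library and 37.5% for miR-25/92 with at least 1 read. The median log2 ratio was 0.22 for miR-17 at led sites, and for miR-25/92 it was -0.22 with at least 3 reads and -0.32 at led sites, where only 10 and 8 sites were shared. Target genes listed in both libraries numbered 71, 32 and 24 with at least 1 read, 9, 8 and 8 with at least 3 reads, 39, 10 and 8 at led sites, and 31, 14 and 13 with at least 2 sites per gene. Merging peaks into regions, chosen after seeing the data, left the overlap at 34.8%, 23.5% and 27.3%. The planned search for seed matches in peak sequence was not run, since no genome of the build of the files was used. With a median of 0.8 reads per pair, absence of a member from a site was not detectable at this depth.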

Other observations

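miR-18a-5p, the remaining 5′ arm of the miR-17-92 transcript, has a seed that is not among those above and was not a member. It held 83.5 reads in 94 peaks in the control library and 79.0 reads in 102 peaks in the mimic library, a ratio of 0.946 (0.683 to 1.29), at a level close to that of miR-19a-3p.

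Of the paralogs that carry the same seeds, miR-32-5p, of the miR-25/92 seed, was the most abundant, with 36.4 and 37.2 reads in 53 and 51 peaks. The others were thin: miR-92b-3p held 2.67 and 6.64 reads, miR-20b-5p 2.0 and 3.30, and miR-106a-5p 2.33 and 1.0. miR-363-3p was listed with 1 read in the mimic library, and miR-367-3p had 0 reads in both (0 to 3.69 per library).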
